A study of Drosophila melanogaster with 3 samples.

Results

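The deposited list of regions enriched for dH1K27me2 placed 293 of its 4751 peaks on 3LHet, a share of 6.17% (95% Wilson interval 5.52 to 6.89%). 3LHet is the heterochromatic sequence that the dm3 build of the Drosophila melanogaster genome assigns to the left arm of chromosome 3 but keeps outside the assembled arm. Every peak whose sequence name was 3LHet was taken, and no measured value entered the choice. Chromatin immunoprecipitation followed by sequencing was applied to S2, an established Drosophila cell line labelled as wild type, with 2 immunoprecipitations by a home-made rabbit antibody against dH1K27me2 and 1 input sample, which is DNA taken without the antibody. The labels name no treatment or genetic change in any sample, and the medium held serum and antibiotics. The name of the list says that immunoprecipitations were merged before they were set against the input, so that no value has a replicate error and no test over samples was possible. The list gives no read counts, and the depth behind each peak is unknown.

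Linker histone H1, called dH1 in Drosophila, binds the DNA that enters and leaves the nucleosome and helps to compact the chromatin fibre. dH1K27me2 is dH1 with 2 methyl groups on lysine 27. Pericentromeric heterochromatin of Drosophila stays compact through the cell cycle, is rich in transposon remnants and satellite repeats, and holds few genes. Reads from repeats can match several places in the genome, and how such reads were treated is not given in the sources used here. A stretch of 3LHet with no peak is called unmarked below. It may lack the modification, or hold too little of it to be listed, since no peak of the list scored below 50.02. It may also consist of repeats to which no read could be assigned, or be a run of unknown bases in the assembly. These cannot be told apart from the list.

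Peaks covered a large part of 3LHet. From base 1 to the end of the last peak the sequence ran for 2550.8 kb, of which peaks covered 1081.7 kb or 42.4%, at 114.9 peaks per Mb. The covered share was 41.7% on 2LHet, 36.7% on 2RHet and 39.9% on 3RHet, the Het sequences most like it. It was 3.50% on the assembled arm 3L, which held 296 peaks. 3LHet thus held about as many peaks as the whole of 3L, which ran for 24517 kb to its last peak. The bases covered on 3LHet made up 10.1% of all bases covered by the list, a larger share than that of its peaks.

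The median width on 3LHet was 2682 bp (interquartile range 1699 to 4666 bp), against 2600 bp on 2RHet, 2280 bp on 3RHet, 3709 bp on the 35 peaks of 2LHet and 1624 bp in the whole list. The median score on 3LHet was 241.7 (interquartile range 122.0 to 540.3), against 235.8 on 2RHet, 195.8 on 3RHet, 567.0 on 2LHet and 137.8 in the whole list. The score is the authors' own value for each peak. How it was computed is not stated. The peaks carry names of the kind MACS gives, and if the score is that of MACS, a larger one goes with a smaller p-value. Of the 293 peaks, 160 or 54.6% (95% Wilson interval 48.9 to 60.2%) were at least as wide as the upper quartile of the list, 2525 bp, which 25% of all peaks reach by construction. The upper quartile of the score, 278.9, was reached by 137 peaks or 46.8% (41.1 to 52.5%), again against 25% of the list. Scores under 100 belonged to 59 peaks or 20.1% on 3LHet, against 35.8% of the whole list. The other Het sequences together lay nearer to 3LHet than to the list in each of these, with 48.5% of their 749 peaks at the upper quartile of width, 41.1% at that of the score and 23.1% scoring under 100. Of the list's 4751 peaks, 2343 lay on the sequence named Uextra, with a median width of 1236 bp and a median score of 108.2. On the large arms and chromosome 4 together the shares were 44.6%, 35.6% and 29.0% in the same order. These shares were not tested, since the peaks come from 1 pooled list and the intervals cover the counting of peaks alone.

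Peaks lay along the whole of 3LHet, but not evenly. In 26 windows of 100 kb, of which the last was partial (50.8 kb), no window was free of peaks. Coverage ran from 7.67% to 67.7% with a median of 43.1%. On 2RHet it ran from 13.0% to 79.7% over 33 windows (median 35.7%) and on 3RHet from 19.1% to 69.9% over 25 windows (median 40.6%). Of the windows of 3LHet, 7 were covered by 50% or more and 1 by less than 10%. With peaks scoring 100 or more alone, these numbers were 4 and 2. In the list as deposited, 9 of 33 windows on 2RHet, 5 of 25 on 3RHet and 2 of 4 on 2LHet were covered by 50% or more. On each of these sequences 0 windows were covered by less than 10%.

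The fullest window of 3LHet was the ninth, from 800001 to 900000, with 67.7% of its bases covered by peaks. The fifth, from 400001 to 500000, followed with 67.0%, and the window from 1200001 to 1300000 with 61.2%. Fullness did not come from the number of peaks alone. The 2 fullest windows held 10 peak midpoints each, below the median of 10.5 per window, whereas the window with most midpoints, from 1800001 to 1900000, held 21 and was covered to 52.6%. The emptiest window lay at 2300001 to 2400000, where 3 midpoints fell and 7.67% was covered. It was followed by the first window of the sequence, covered to 10.7%, and the second, covered to 26.1%.

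**Figure D1:**
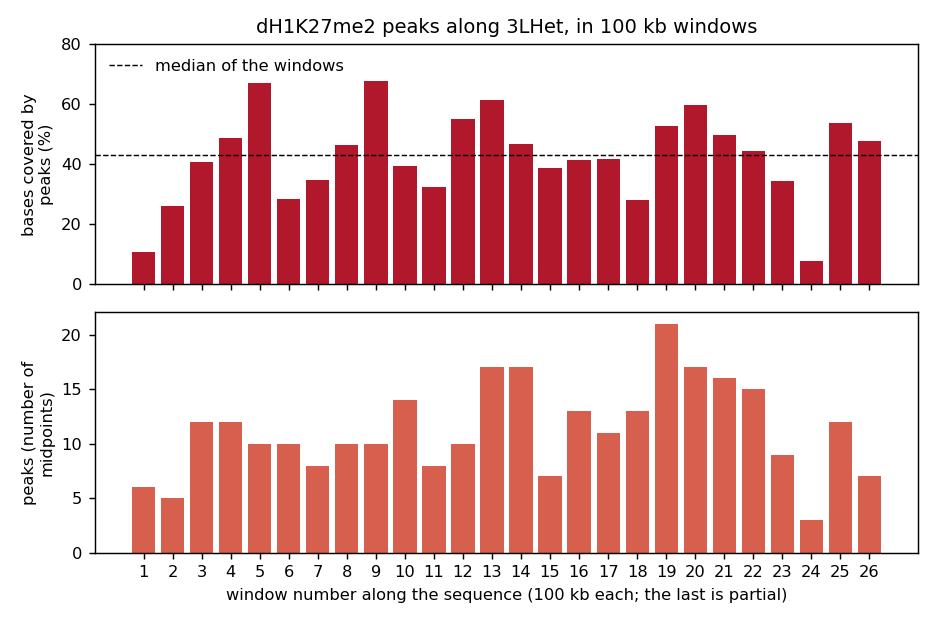
Coverage by dH1K27me2 peaks (upper panel, percent of the bases of each window) and number of peak midpoints (lower panel) in 26 consecutive windows of 100 kb along 3LHet. The dashed line is the median of 43.1%. Windows 5 and 9 are the fullest at 67.0% and 67.7% with 10 midpoints each, and window 24 is the emptiest at 7.67%.

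In sections of 500 kb the covered share ran from 37.9% to 46.8%, and the number and median width of the peaks differed. The partial section at the end, with 7 peaks, is left out here. Coverage was 38.6% in the first section, 43.3% in the second, 46.8% in the third, 44.8% in the fourth and 37.9% in the fifth. The number of peaks was 45, 52, 59, 75 and 55 in the same order. The fourth section, from 1500001 to 2000000, had the most peaks, and its median width of 2363 bp was the smallest of the 5. The first section had the fewest peaks of these 5 and the largest median width, 3100 bp. Peaks scoring 1000 or more numbered 5, 8, 5, 2 and 3 from the first section to the fifth. Over all 293 peaks, Spearman's rho of position and score was only -0.07. These sections are a description of 1 sequence, whose pieces may not lie in chromosomal order.

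Most peaks of 3LHet lay close to another. Of the 292 gaps between neighbouring peaks, 31 were under 100 bp, 98 under 500 bp and 129 (44.2%) under 1 kb, and the shortest was 6 bp. The median gap was 1447.5 bp, against 1078 bp on 2LHet, 1273 bp on 2RHet and 1188 bp on 3RHet. Gaps under 1 kb made up 47.1% on 2LHet, 45.6% on 2RHet and 47.1% on 3RHet. The nearest other peak was under 1 kb away for 197 of the 293 peaks or 67.2% (95% Wilson interval 61.7 to 72.4%). The share was 39% in the whole list and 48.7% on the large arms and chromosome 4. On the other Het sequences together it was 68.9% (65.5 to 72.1%), close to the share on 3LHet. Neighbouring peaks count each other, the intervals cover counting alone, and the difference was not tested. When peaks less than 1 kb apart were joined, 164 regions remained on 3LHet, with a median width of 4172.5 bp.

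Chains of peaks separated by less than 2 kb are called runs here. There were 69 runs of at least 2 peaks on 3LHet, and they took in 233 of the 293 peaks (79.5%). Runs took in 51.8% of the whole list and 63.5% of the peaks on the large arms and chromosome 4. The share in runs was 28 of 35 peaks on 2LHet, 80.1% on 2RHet and 84.2% on 3RHet, so that 3LHet was like the sequences nearest to it in kind. Of the runs on 3LHet, 25 consisted of 2 peaks, 32 of 3 or 4 and 12 of 5 or more, and the median length was 11493 bp. The other 60 peaks stood alone by this measure.

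The longest run spanned 57.1 kb from 787510 to 844652 and held 10 peaks, which covered 96.2% of it. Its peaks differed greatly from each other, with scores from 55.3 to 2094 and widths from 1157 to 13754 bp. The next run, from 1605973 to 1645031, spanned 39.1 kb with 9 peaks and 90.1% coverage. The third, from 404019 to 438403, spanned 34.4 kb with 4 peaks. It was high-scoring throughout, since its lowest score was 774.9 and its highest, 2462, was the highest on 3LHet. The fourth run, from 1964410 to 1994032, spanned 29.6 kb with 6 peaks and was covered to 93.6%. None of its scores passed 241.7. The fifth, from 1848061 to 1877469, spanned 29.4 kb with 10 peaks, was covered to 72.1% and reached a score of 472.5. Long runs were therefore found both with high and with low scores.

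Peaks side by side had little likeness in score. Across the 129 pairs less than 1 kb apart, Spearman's rho between the score of a peak and that of the next was -0.02, and in 83 of the pairs (64.3%) one score was at least 2 times the other. The median was 513.9 for the higher and 155.4 for the lower score of a pair. In the 167 such pairs of 2RHet rho was 0.29, with 53.9% of pairs differing at least 2 times, and in the 160 of 3RHet it was 0.11 with 53.1%. The 16 such pairs of 2LHet gave 0.19 with 56.25%. Further apart on 3LHet, the 125 pairs at 1 to 10 kb gave rho 0.04 and 55.2%. The 38 pairs at 10 kb or more gave -0.25 and 68.4%, so the share was not particular to close pairs. Successive pairs share a peak, so these values describe the sequences and carry no test.

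Unmarked stretches of 10 kb or more numbered 39 on 3LHet, counting the 10628 bp before the first peak, and added up to 926.6 kb or 36.3% of its length. The same measure gave 46.3% on 2LHet, 46.0% on 2RHet and 36.8% on 3RHet. Of the 1469 kb of 3LHet that no peak covered, gaps of at least 10 kb held 62.3%, whereas the many gaps under 1 kb held 2.81%.

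The longest unmarked stretch spanned 95638 bp, from 2287777 to 2383414. The second spanned 71635 bp, from 89051 to 160685, and the third 65469 bp, from 21533 to 87001. A single peak parted the second stretch from the third, at 87002 to 89050, which was 2049 bp wide and scored 291.0. The fourth stretch spanned 64433 bp, from 1053062 to 1117494, and began right after a peak 8493 bp wide with a score of 862.7, whereas the peak at its other end was 1156 bp wide and scored 91.9. The next longest gap was 28182 bp, from 1652505 to 1680686, so that the gaps of 3LHet included none between 30 and 60 kb. On 2RHet 7 gaps and on 3RHet 6 gaps fell in that range, and 2LHet had none among its 34 gaps. The 4 long stretches together held 297.2 kb, which is 11.7% of 3LHet and 32.1% of the length in its unmarked stretches of 10 kb or more.

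The empty range between 30 and 60 kb depended on low-scoring peaks. When only peaks scoring 100 or more were kept, 5 gaps of 3LHet fell into it, and 4 were longer. The longest of the 5 spanned 51791 bp, from 1652505 to 1704295. With the same limit, 10 gaps of 2RHet, 8 of 3RHet and 1 of 2LHet fell into that range. The stretch of 95638 bp had the same ends under this setting, since the peaks beside it scored 179.2 and 233.7.

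**Figure D2:**
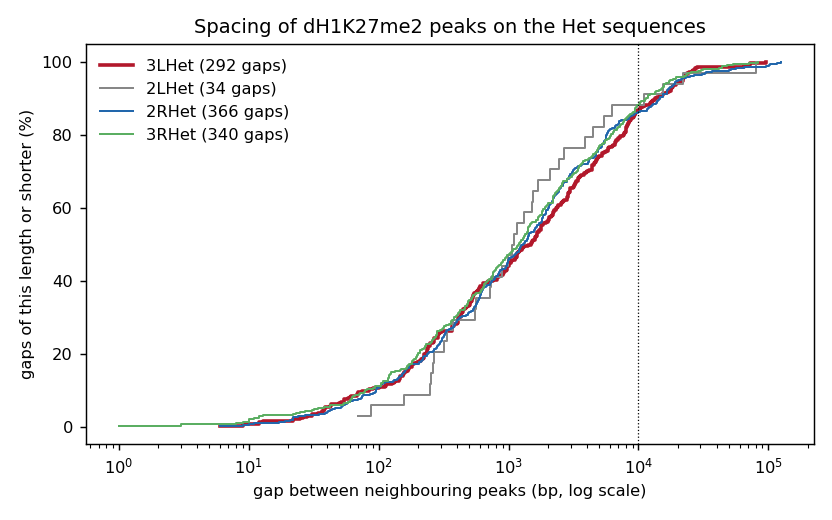
Cumulative share of gaps (vertical axis, percent) by their length (horizontal axis, bp, log scale) between neighbouring dH1K27me2 peaks on 3LHet, 2LHet, 2RHet and 3RHet. The dotted line marks 10 kb, the least length of the unmarked stretches counted in the text. The curves of 3LHet, 2RHet and 3RHet run close together, and that of 3LHet is flat between 28182 and 64433 bp.

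Isolated peaks were rare on 3LHet, as on the other Het sequences. For 6 peaks (2.05%, 95% Wilson interval 0.942 to 4.39%) the nearest other peak was at least 10 kb away, against 12.6% of the whole list and 2.00% of the other Het sequences. The number was 3 with peaks scoring 100 or more alone and 10 after merging of peaks less than 1 kb apart. The most isolated was the peak of 2049 bp at 87002 to 89050 described above. The next, at 1680687 to 1681928, was 1242 bp wide, scored 64.6 and was 22367 bp from its nearest neighbour. The other 4 scored 50.2, 77.0, 91.9 and 317.7. Peaks in runs had a median width of 2837 bp and a median score of 270.0, and the 54 peaks with the nearest other 2 to 10 kb away had 2128.5 bp and 195.7. The 6 isolated peaks had 1268.5 bp and 84.5.

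Score and width rose together over most of the range, and parted among the widest peaks. Over the 293 peaks Spearman's rho was 0.82. Among the 265 peaks narrower than 8 kb it was 0.90, and among the 28 peaks of 8 kb or more it was -0.32. The wide peaks of 2RHet gave -0.16 (21 peaks) and those of 3RHet -0.33 (10 peaks). All points share 1 list, the same merged libraries and 1 peak caller, whose rule for joining enriched bases may tie the measures to each other.

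By width, 98 peaks of 3LHet were 1 to 2 kb wide, with a median score of 93.5 and no score above 366.7. The 67 peaks of 2 to 3 kb had a median score of 233.4, the 62 of 3 to 5 kb 505.4 and the 38 of 5 to 8 kb 871.1. The 28 peaks of 8 kb or more fell back to a median of 506.4. On 3RHet the step between the last classes was also downward, with 669.4 for the 10 peaks of 8 kb or more and 817.7 for those of 5 to 8 kb. On 2RHet it was upward, with 772.7 for 21 peaks and 691.4. On 2LHet there was no fall either, with 1341.8 for 3 peaks of 8 kb or more and 1333.0 for 7 of 5 to 8 kb.

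Peaks of 8 kb or more were more common on 3LHet than in the list as a whole, at 28 of 293 or 9.56% (95% Wilson interval 6.69 to 13.5%) against 2.27%. The large arms and chromosome 4 had 4.13%, whereas Uextra, with 2343 of the list's peaks, had 0. On the other Het sequences together they were 34 of 749 or 4.54% (3.27 to 6.28%), comprising 3 on 2LHet, 21 on 2RHet and 10 on 3RHet. They carried 302.6 kb, which is 28.0% of the covered bases of 3LHet, against 23.1% on 2LHet, 18.5% on 2RHet and 10.8% on 3RHet. On 2LHet the 3 wide peaks made up 8.57% of its 35, close to the share on 3LHet. The differences were not tested, and they concern peaks as the caller drew them, since merging of peaks less than 1 kb apart gave 56 regions of 8 kb or more on 3LHet. Of the 28 wide peaks, 20 or 71.4% had a neighbour less than 1 kb away, near the 67.2% of all peaks of 3LHet.

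The widest peak of 3LHet, and of the list, spanned 18069 bp at 479789 to 497857 and scored 75.8. The list's median score of 137.8 thus lay above it. The second, of 14935 bp at 1197836 to 1212770, scored 337.4, and the third, of 14219 bp at 1129965 to 1144183, scored 320.7. The fourth, of 13754 bp at 823403 to 837156, scored 831.2, and it lay inside the longest run. The fifth, of 13739 bp at 1485813 to 1499551, scored 168.0. None of the 5 widest peaks was among the 5 highest by score.

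Low scores on very wide peaks were not confined to the widest one. Of the 28 peaks of 8 kb or more on 3LHet, 4 or 14.3% scored below the list's median, from 58.8 to 119.3. This share was at the background, since 15.7% of the 108 peaks of this width in the whole list scored below it. Merging of peaks less than 1 kb apart left 1 such region. A merged region takes the highest score of its peaks, so this fall follows from the rule and says nothing about low scores. The lowest of the 4 was a peak of 10438 bp at 1967492 to 1977929, inside the fourth longest run. Another spanned 11017 bp at 1609847 to 1620863 with a score of 119.3, inside the second longest run, and the last 8265 bp at 2265626 to 2273890 with a score of 96.7. Of the 28 peaks, 14 scored under 500 (median width 10446 bp) and 14 scored 500 or more (median width 9783.5 bp). On 2RHet 3 of 21 wide peaks scored below the list's median, and on 2LHet and 3RHet 0 of 3 and 0 of 10.

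**Figure D3:**
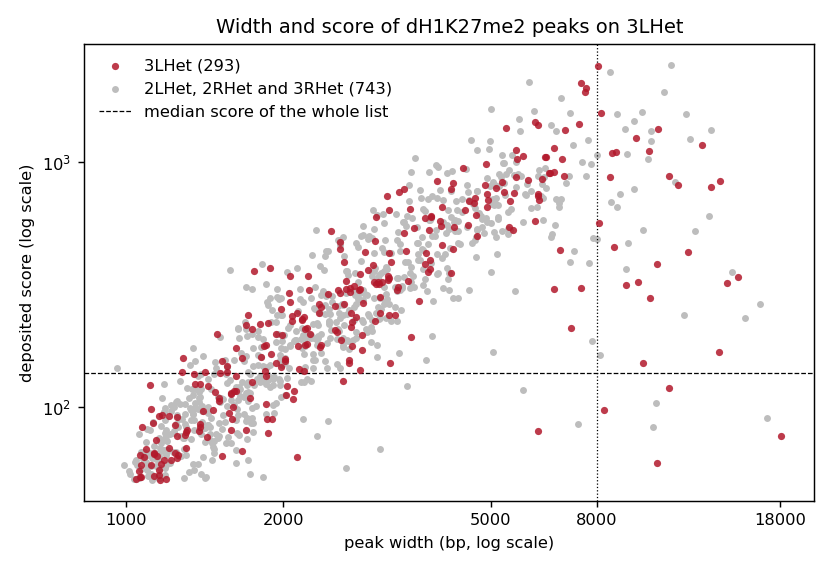
Deposited score (vertical axis, log scale) against width (horizontal axis, bp, log scale) of the 293 peaks of 3LHet in red and the 743 peaks of 2LHet, 2RHet and 3RHet in grey. The dashed line is the list's median score of 137.8 and the dotted line marks 8 kb. Points rise together up to 8 kb and scatter beyond it, where 4 red points lie below the dashed line.

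The 5 highest scores of 3LHet belonged to peaks of similar width. The highest, 2462, was that of a peak of 8052 bp at 426028 to 434079, in the third longest run, with its nearest neighbour 913 bp away. The next, 2094, came from 7470 bp at 837183 to 844652, which closed the longest run and had 22313 bp without a peak on its right. The third, 1996, came from 7621 bp at 607821 to 615441, with its nearest neighbour 2370 bp away. The fourth, 1924, came from 7576 bp at 939208 to 946783. The fifth, 1576, came from 8152 bp at 787510 to 795661 and opened the longest run. The 5 peaks were thus between 7470 and 8152 bp wide, and each scored above at least 99.1% of the list.

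In all, 23 peaks of 3LHet scored 1000 or more, which is 7.85% (95% Wilson interval 5.29 to 11.5%), against 3.22% of the whole list. The share was 6.26% (4.74 to 8.22%) on the large arms and chromosome 4, and 0.811% on Uextra. There were 7 such peaks among the 35 on 2LHet, and the share was 4.90% on 2RHet (18 of 367) and 2.93% on 3RHet (10 of 341). The narrowest of the 23 was 5360 bp wide and the widest 12717 bp, a broader range than that of the 5 highest. They held 174.1 kb or 16.1% of the covered bases of 3LHet.

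**Figure D4:**
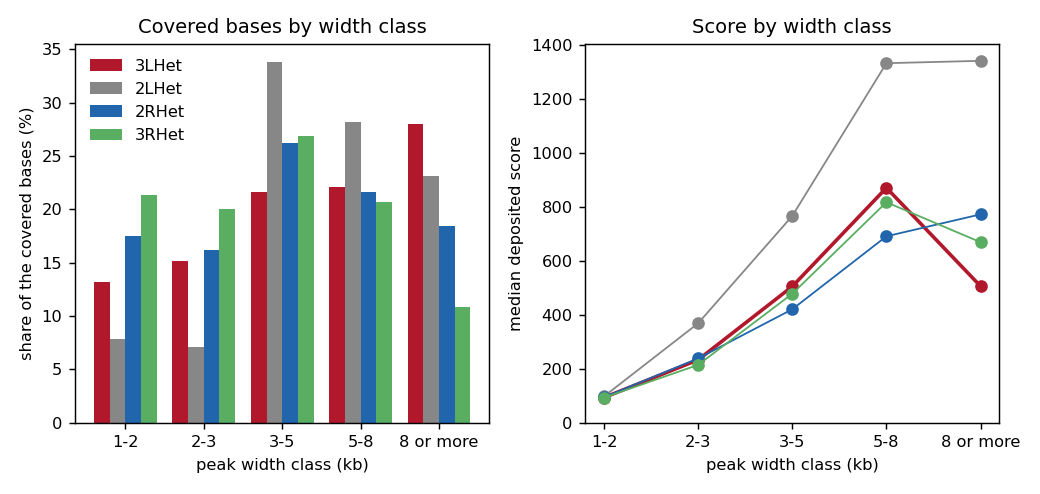
Share of the bases covered by peaks (left, percent) and median deposited score (right) by width class in kb on 3LHet, 2LHet, 2RHet and 3RHet. On 3LHet the class of 8 kb or more holds 28.0% of the covered bases and its median score of 506.4 is below the 871.1 of the class of 5 to 8 kb. The class of 8 kb or more rests on 28, 3, 21 and 10 peaks in the order of the legend.

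At the other end of the scale, the lowest score on 3LHet was 50.2, from an isolated peak of 1161 bp at 561587 to 562747. The 4 next lowest, from 50.8 to 51.7, belonged to peaks 1042 to 1192 bp wide. The narrowest peak spanned 1042 bp at 1241126 to 1242167 and scored 50.8. The 5 narrowest, from 1042 to 1066 bp, all scored under 64, and 3 of them were also among the 5 lowest by score. Low scores and small widths therefore mostly went together, and the wide low-scoring peaks were the exception. The first peak of the sequence, at 10629 to 11773, was 1145 bp wide with a score of 62.7. The last, at 2546275 to 2550812, was 4538 bp wide with a score of 691.9.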

How the data were processed

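The data were 1 deposited list of peaks from 2 dH1K27me2 immunoprecipitations and 1 input of S2 cells. Per the submitters' processing notes, the build was dm3 and the tools included FastQC 0.10.1, Bowtie 0.12.5, SAMtools 0.12.9, featureCounts and MACS 1.4 and 1.4.2, with no role or order given. The list has no header and gives for each peak its place and a score deposited by the authors. The range of the scores is that of MACS 1.4, which derives its score from the p-value, but no source states it. Here the score serves to order peaks and to compare neighbours by ratio, and no ratio is read as one of enrichment. The list's name gives 1 library number of the first immunoprecipitation, whose title holds a pair, so that whether all of it was merged is not known. No peaks overlapped.

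Widths, gaps, runs, windows and Spearman's rho were computed with Python 3.11.15, pandas 2.3.3, numpy 2.4.6 and scipy 1.17.1, and the functions were tested on simulated peaks. Coordinates are 1-based. No sequence lengths were given, so each sequence was taken from base 1 to its last peak. No test was made, because the libraries were pooled. Wilson intervals at 95% cover counting error only. Alternatives were scores of 100 or more, merging over 1 kb, other limits of length and other windows. A merged region was given the highest score of its peaks. Named peaks and stretches were the 5 highest, lowest, widest and narrowest peaks, the first and last, the isolated peaks, the 5 longest gaps and runs and the fullest and emptiest 3 windows. The isolated peaks, the peaks of 8 kb or more with low scores and the limits of 8, 30 and 60 kb were chosen after their values were seen. The members and lists were chosen with earlier results of these data known. No genome sequence of dm3 and no gene annotation were used, so no sequence or gene is given.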

Additional observations from a re-analysis of the deposited data

How the results depend on the processing

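In all, 49 alternative values were computed under 9 settings. The limits were 1.5 times for counts and the 95% binomial interval for medians and shares. Of the values, 21 were labelled unchanged, 28 moved and 0 reversed, though only rho could change sign. Changes of rho and of the length of the longest run were labelled moved, although these limits do not cover them. Some of the 21 were fixed by the rule, since merging cannot alter gaps of 10 kb or more. With scores of 100 or more, 234 peaks remained, coverage was 37.9%, the median width 3064 bp, the median score 321.4 and rho 0.79. The share in unmarked stretches of 10 kb or more was then 44.3%. With peaks less than 1 kb apart merged, there were 164 regions, coverage was 44.0%, the median width 4172.5 bp, the median score 306.5, the median gap 4517 bp and rho 0.84. From the first peak to the last, coverage was 42.6% and the share in unmarked stretches of 10 kb or more 36.1%. Counting stretches of 5 kb or more gave 76 and 47.3%, and of 20 kb or more 17 and 23.8%. With gaps of 60 kb or more left out of the length, chosen after seeing the data, coverage was 48.0%, against 53.6% on 2LHet, 45.0% on 2RHet and 42.6% on 3RHet. The longest stretch, 95638 bp, could not change under merging. Its ends could not move under the score limit, because both peaks beside it scored above 100, and no other gap became longer there. The median window coverage stayed between 38.8 and 45.3% under all settings run for it. The number of peaks of 8 kb or more was 25 at scores of 100 or more and 56 after merging. The 69 runs became 62 at scores of 100 or more, where the longest spanned 43239 bp in place of 57143 bp, and 27 after merging, which joins most of their peaks beforehand. The sequence length of the same build was not run, since no genome of it was used. No paired analysis was possible because the immunoprecipitations were pooled before peaks were called, and leaving out a replicate was not possible for the same reason.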
